A study of Mus musculus with 32 samples.

Results

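The respiratory chain genes described here encode the subunits of complexes I, III and IV and of the ATP synthase, together with complex I assembly factors whose symbols begin with Nduf. Members were taken by name: protein-coding genes with symbols starting Nduf, Uqcr, Cox4i, Cox5, Cox6, Cox7, Cox8 or Atp5, the gene Cyc1, and the mitochondrially encoded mt-Nd, mt-Co, mt-Atp and mt-Cytb genes, with a mean of at least 1 CPM (counts scaled to the library total) over the 32 libraries. The names matched 104 protein-coding genes, and 100 of the 55938 genes of the table were members, 87 encoded in the nucleus and 13 in the mitochondrial genome. The other 4 were Cox7b2, Cox8c, a second Atp5o entry and Ndufa4l2, which missed the limit at 0.979 CPM, while Cox4i2 was the member closest to it. A further 13 pseudogene or noncoding matches were left out. By role the nuclear members were 7 core and 29 accessory subunits of complex I, 8 complex I assembly factors, 9 subunits of complex III, 17 of complex IV, 16 of the ATP synthase and its accessory gene Atp5s.

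All mice carried Aldh1l1-CreER, a tamoxifen-dependent Cre recombinase under an astrocyte promoter, and Rpl22-HA, a Cre-dependent allele that tags a ribosomal protein, so that the uninjured controls carry both alleles too. Ribosomes of lumbar spinal cord astrocytes were pulled down through the tag (Trap, 24 libraries), and unselected homogenate served as Input (8 libraries). Female and male mice were uninjured or were collected 3, 5 or 7 weeks after a fracture that models complex regional pain syndrome, so that each of the 8 groups by sex and state holds 3 Trap libraries and 1 Input library. Age and strain background are not given in the sources used here, nor is it stated whether each library came from 1 animal, and p-values therefore reflect only how far these libraries vary, which may be technical.

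Oxidative phosphorylation passes electrons from NADH through complex I, from there through ubiquinone to complex III, and through cytochrome c to complex IV, which reduces oxygen. The proton gradient that results drives the ATP synthase. Most subunits are encoded in the nucleus, translated on cytosolic ribosomes and imported, whereas a small set of hydrophobic core subunits is encoded in mitochondrial DNA and translated inside the organelle on mitochondrial ribosomes, which do not contain Rpl22. Astrocytes are known for high glycolytic flux and for fatty acid oxidation alongside respiration.

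Library totals ran from 17124034 to 23189228 estimated counts. The nuclear members took 1.09% to 1.39% of the counts in Input and 1.40% to 2.17% in Trap, and the mitochondrially encoded members 3.62% to 5.47% in Input and 0.115% to 0.434% in Trap. All 15 astrocyte markers were higher in Trap, while all 15 neuron, 12 oligodendrocyte, 11 microglia and 10 endothelial markers were lower. The summed CPM of these lists in Trap was 943% of that in Input for astrocytes, 7.36% for neurons, 22.7% for oligodendrocytes, 18.7% for microglia and 12.5% for endothelial cells. Blood cell markers were higher in Trap (8 of 8, summed CPM 537% of Input), and so were 7 of 8 tested muscle markers (136%). A pair of Trap libraries stood apart: male 7 weeks replicate 2 in the nuclear members and female 3 weeks replicate 3 in the mitochondrially encoded members and in neuron markers, and medians and counts of signs that moved with them in the fracture and sex comparisons are given with and without them.

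Trap and Input differed in opposite directions for the 2 genomes. Summed over the nuclear members, Trap held 16870 ± 2017 CPM (SD, n = 24) and Input 9523 ± 1115 CPM (SD, n = 8), a ratio of 1.77. Summed over the mitochondrially encoded members, Trap held 1894 ± 593 CPM and Input 35985 ± 6034 CPM, 19.0-fold more. No Trap library came near Input in the second sum, since the share of the Input mean ran from 3.43% to 11.8% over the Trap libraries. The pull-down takes ribosomes through tagged Rpl22, which mitochondrial ribosomes do not contain. The second sum in Trap is therefore no measure of how much mitochondrial RNA astrocytes hold. In bulk libraries such as these, fewer cells of a type and less RNA per cell also cannot be told apart.

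Across single genes, edgeR's quasi-likelihood test called 79 of 87 nuclear members higher in Trap and 4 lower at an adjusted p under 0.05, against a background of 43.3% of the 17100 genes tested called higher and 44.3% called lower. The median log2 difference of the nuclear members was 0.79, beside -0.01 over all genes tested, and 24 members were more than 2-fold higher. All 13 mitochondrially encoded members were called lower, with a median of -4.27. The nuclear split depends on scaling. With library totals in place of TMM factors the median over all genes shifted to -0.51. Under these totals 50 nuclear members were called higher and 13 lower with a median of 0.29, while the 13 mitochondrially encoded members stayed lower. All differences with library totals given below are to be read beside that -0.51. Within females alone 80 nuclear members were higher and 2 lower (median 0.91), and within males alone 68 were higher and 4 lower (median 0.65). Over all genes, 14968 were called in either direction with library totals, 13970 within females and 13627 within males. The levels of 61 nuclear members and of all 13 mitochondrially encoded members did not overlap between the Trap and Input libraries. The share of all genes without overlap was not counted, so these counts do not set the members apart.

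**Figure D1:**
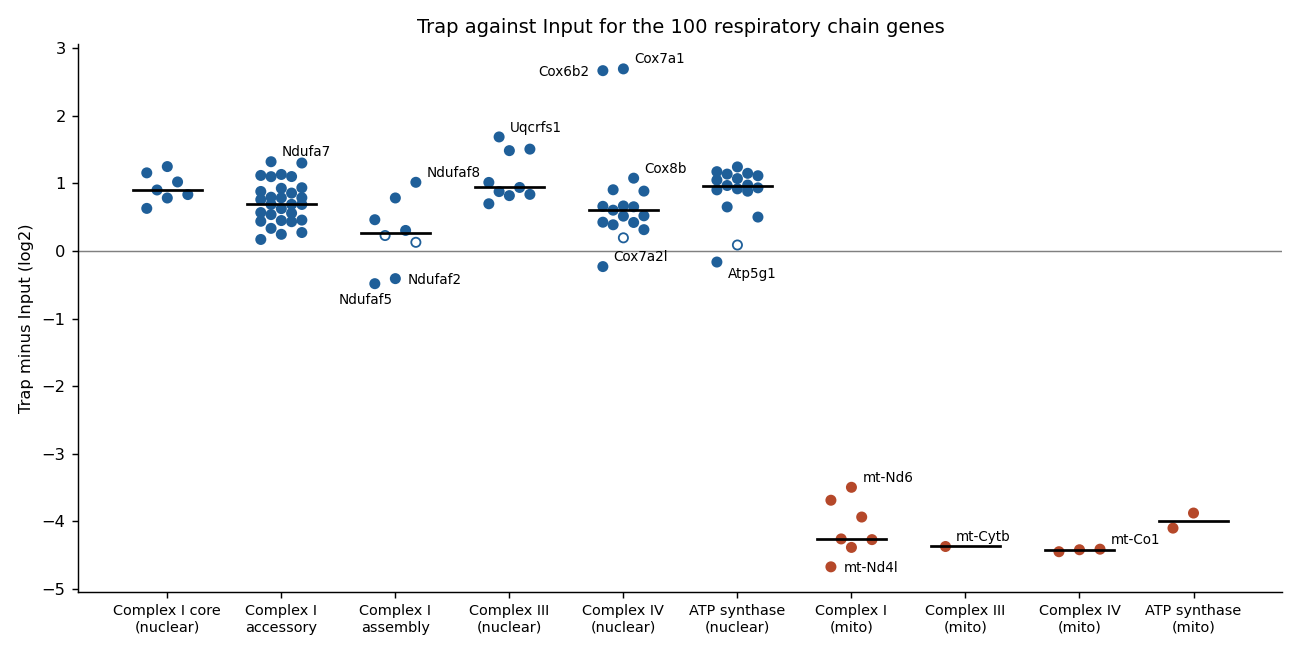
Log2 difference of Trap and Input (vertical axis) for each of the 100 members, grouped by complex and genome, with Atp5s drawn among the nuclear ATP synthase genes. Each point is 1 gene, filled where edgeR called it and open where it did not, and bars are medians. Nuclear genes (blue) lie between -0.48 and 2.69, and mitochondrially encoded genes (red) between -4.67 and -3.50.

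The 7 core subunits of complex I, which carry its flavin, its iron-sulfur clusters and the quinone site, were all called higher in Trap (median log2 0.90). Ndufs3 was the highest, at 1.25 ± 0.0680 (SE). Ndufs1, the iron-sulfur subunit of the NADH-oxidising arm on chromosome 1 (63143596 to 63176833, GRCm38), ran from 243 to 349 CPM in Trap with a median of 308, and from 124 to 144 CPM in Input with a median of 140. The lowest Trap library therefore lay above the highest Input library, and the difference was 1.16 ± 0.0486. The lowest core subunits were Ndufv2 at 0.63, Ndufs7 at 0.78 and Ndufv1, the NADH-binding flavoprotein, at 0.83. All 7 kept a positive difference with library totals, where the median was 0.40 and 6 were called.

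The 29 accessory subunits of complex I, which surround the core and stabilise it, were also all called higher, with a lower median of 0.69. The highest were Ndufa7 at 1.32 ± 0.101, Ndufb11 at 1.30 ± 0.0833 and Ndufv3 at 1.13 ± 0.0689. The lowest were Ndufb5 at 0.17, Ndufa6 at 0.25 and Ndufb8 at 0.27, and these 3 turned negative with library totals, at -0.33, -0.25 and -0.23. With library totals 15 of the 29 were higher, 3 were lower and the median was 0.19, beside -0.51 over all genes.

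The assembly factors, which help to build complex I without staying in it, were divided. Of 8, 4 were higher, 2 were lower and 2 were not called, with a median of 0.27 that became -0.23 with library totals. Over all genes the median with those totals was -0.51. Ndufaf8 was highest at 1.02 ± 0.102, and Ndufaf7, a mitochondrial methyltransferase, followed at 0.78 ± 0.0527. Ndufaf5, which hydroxylates Ndufs7, was lower in Trap: it ran from 13.5 to 21.1 CPM (median 15.6) in Trap and from 20.2 to 24.97 CPM (median 22.4) in Input, a difference of -0.48 ± 0.0630 with ranges that meet only at their edges. Ndufaf2 was lower at -0.41 ± 0.0752. Ndufaf4 was called at 0.46 but was -0.04 with library totals, and Ndufaf3 (0.13) and Ndufaf6 (0.23) were not called.

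All 9 nuclear subunits of complex III were higher in Trap (median 0.94), and all 9 were also called with library totals, where the median was 0.44. Uqcrfs1, the Rieske iron-sulfur protein on chromosome 13 (30540308 to 30545362), ran from 198 to 410 CPM in Trap with a median of 280, and from 75.5 to 99.4 CPM in Input with a median of 88.8. Its lowest Trap library was thus above its highest Input library, and the difference of 1.69 ± 0.0736 was the highest in the complex. The small subunits Uqcr11 and Uqcr10 followed at 1.51 ± 0.107 and 1.48 ± 0.0999. Uqcr11 ran from 105 to 200 CPM in Trap (median 115) and from 36.4 to 52.4 CPM in Input (median 43.0), with no overlap. The lowest differences were 0.70 for Uqcrh, 0.82 for Uqcrq and 0.84 for Cyc1, the cytochrome c1 that passes electrons on to cytochrome c.

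Complex IV held both the most enriched members and some of the least. Of its 17 nuclear genes 15 were higher, 1 was lower and 1 was not called, with a median of 0.60. The 11 subunits other than the alternative isoforms and Cox7a2l had a median of 0.52 and ran from 0.32 for Ndufa4 to 0.91 for Cox8a. With library totals that median was 0.02, beside -0.51 over all genes, and 2 of the 11 were called higher and 1 lower. Cox4i1, a regulatory subunit, lies on chromosome 8 (120668222 to 120674207). It ran from 569 to 1145 CPM in Trap (median 666) and from 421 to 617 CPM in Input (median 509). Its ranges overlap, and its difference of 0.43 became -0.08 with library totals. Cox6a1 (0.52) and Cox6b1 (0.65) were higher, and Cox7a2, at 0.39, became -0.11 with library totals. Cox7a2l, a supercomplex assembly factor, was lower in Trap at -0.23 ± 0.0591.

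Among the 5 alternative isoforms of complex IV subunits, Cox7a1, Cox6b2 and Cox8b lay above the range of the other subunits, Cox4i2 inside it and Cox6a2 below it. Cox7a1, the isoform best known from heart and skeletal muscle, ran from 14.8 to 43.6 CPM in Trap (median 21.5) and from 2.77 to 4.19 CPM in Input (median 3.34). The lowest Trap library lay above the highest Input library, and the log2 difference of 2.69 ± 0.138 was the highest of the 100 members. Cox6b2, known as a testis isoform, ran from 5.95 to 13.05 CPM in Trap (median 8.05) and from 0.810 to 2.09 CPM in Input (median 1.20), a difference of 2.67 ± 0.150. Cox8b (1.08) and Cox4i2 (0.66), at 2.51 and 1.12 CPM in Trap, were also called higher, and Cox6a2 (0.19, at 1.72 CPM in Trap) was not. The muscle markers moved the same way by less: 7 of 8 tested, among them Acta1 at 0.36 and Myh4 at 0.50, were higher in Trap by 0.36 to 0.58, with a sum of 392 ± 45.1 CPM in Trap and 289 ± 46.3 CPM in Input, while cardiac Tnnt2 was lower at -3.56 and 2 of the 9 markers were at 0 in at least 1 Trap library. With library totals, where the median over all genes was -0.51, none of the 8 was called higher and Tnnt2 stayed lower. The median of the muscle markers was then -0.06, with 1 positive and 7 negative values. Their part in the isoform levels was not tested.

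Promoter stretches of the complex III gene Uqcr11 and of the Cox7a pair are shown because Uqcr11 and Cox7a1 were among the members that differed most and Cox7a2 is the alternative to Cox7a1. They are the 120 bases that end just before the annotated gene, from the RefSeq promoter table (GRCm38.p6), written 5′ to 3′ on the gene's strand, with a match to the ETS motif CCGGAAGT in capitals.
Uqcr11, chr10:80406831-80406950, minus strand: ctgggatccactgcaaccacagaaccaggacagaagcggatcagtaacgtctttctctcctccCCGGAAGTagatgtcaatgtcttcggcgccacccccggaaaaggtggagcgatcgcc
Cox7a1, chr7:30184024-30184143, plus strand: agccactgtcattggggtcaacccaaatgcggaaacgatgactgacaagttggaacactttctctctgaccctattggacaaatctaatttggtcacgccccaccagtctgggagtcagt
Cox7a2, chr9:79759879-79759998, minus strand: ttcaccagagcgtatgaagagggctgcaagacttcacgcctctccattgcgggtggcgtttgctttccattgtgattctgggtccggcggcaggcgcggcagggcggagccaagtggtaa
Promoters of 300 bases, from 250 before to 50 after the start, were found for 70 of the 87 nuclear members and searched on both strands for 4 motifs that are known at respiratory genes. The NRF1 core GCGCATGC was found in 11 of 70 members (15.7%) and in 2.80% of all 27025 promoters. The YY1 motif AAGATGGCG was found in 7 members (10%) and in 1.49% of all promoters, the CRE TGACGTCA in 4 (5.71%) and 1.88%, and the ETS motif in 5 (7.14%) and 4.0%. Uqcr11 had both an NRF1 and an ETS match, the NRF1 match outside the printed stretch, and Cox7a1 and Cox7a2 had none of the 4 in their windows. The median Trap difference was 0.56 for the 11 members with an NRF1 match and 0.79 for the 59 without one. It was 0.93 with and 0.78 without an ETS match, 0.78 with and 0.79 without a YY1 match, and 0.50 with and 0.79 without a CRE match. These letter matches are a description of the sequences and show no binding.

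Of the 16 nuclear ATP synthase genes 15 were higher in Trap and 1 lower, with a median of 0.97 that was 0.47 with library totals. The catalytic beta subunit Atp5b on chromosome 10 (128083273 to 128090391) ran from 1966 to 2728 CPM in Trap (median 2198) and from 1070 to 1402 CPM in Input (median 1169), without overlap, a difference of 0.88 ± 0.0484. Atp5g2, which encodes the c subunit of the membrane ring, was highest at 1.24 ± 0.0784, followed by the gamma subunit Atp5c1 at 1.17 ± 0.0602 and a second c subunit gene, Atp5g3, at 1.15 ± 0.0701. The third c subunit gene, Atp5g1, went the other way at -0.16 ± 0.0750 (edgeR adjusted p = 0.0422). Its Trap libraries (104 to 205 CPM, median 119) and Input libraries (118 to 165 CPM, median 135) overlap, and the call was lost when any 1 of 15 single libraries was left out (the male Input libraries of the uninjured, 3 weeks and 5 weeks groups and 12 Trap libraries), with an adjusted p of up to 0.141 without the male Input library of 5 weeks. The small membrane subunits Atp5mpl (0.50) and Atp5j2 (0.65) were lowest among the genes called higher, and Atp5s, an accessory factor, was not called at 0.09, a sign that turned with DESeq2's size factors and with library totals.

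The mitochondrially encoded members were lower in Trap in every complex. mt-Co1, the catalytic subunit of complex IV (chromosome M, 5328 to 6872), ran from 470 to 1467 CPM in Trap with a median of 624, and from 11639 to 14958 CPM in Input with a median of 14013. Its difference was -4.41 ± 0.112, and the highest Trap library stayed far below the lowest Input library. mt-Co2 (-4.42), mt-Co3 (-4.45) and mt-Cytb of complex III (-4.37) lay close to it. The complex I genes spread from -4.67 for mt-Nd4l to -3.50 for mt-Nd6, the one gene here on the light strand, with mt-Nd1 at -3.69, mt-Nd4 at -3.93, mt-Nd2 at -4.26, mt-Nd5 at -4.27 and mt-Nd3 at -4.38. The ATP synthase genes mt-Atp6 and mt-Atp8 were at -3.88 and -4.10 and share 43 bases. For comparison, the Trap level of neuron markers was 7.36% of Input and that of all mitochondrially encoded members 5.26%, and whether RNA of other cells sets the latter was not tested. The libraries were made by poly-A selection, per the labels, so that levels of mitochondrial transcripts also depend on their short tails.

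Per kilobase of exon, the levels of mitochondrial and nuclear genes of 1 complex lay much further apart in Input than in Trap. mt-Co1 was at 8896 CPM per kilobase in Input and Cox4i1 at 330. In Trap mt-Co1 was at 421 CPM per kilobase and Cox4i1 at 441. In complex III mt-Cytb was at 4280 CPM per kilobase in Input and Cyc1 at 59.0, against 207 and 105 in Trap, so that mt-Cytb stayed the higher of the pair by this measure. The length is that of all annotated exon bases, which can exceed the length of a transcript. The order of a pair in Trap is therefore uncertain. The pull-down also works through a tagged ribosomal protein that mitochondrial ribosomes do not contain. The Trap levels of mt-Co1 and mt-Cytb are thus no measure of how much of these transcripts astrocytes hold. The nearness of mt-Co1 and Cox4i1 in Trap therefore does not show the balance of the mitochondrial and nuclear genomes in astrocytes.

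Some members share reads with near-identical copies and are uncertain, because the estimated counts divide such reads among the copies. These are mt-Atp6, mt-Co2, mt-Co3, mt-Nd3 and mt-Nd4l, whose copies are pseudogenes on chromosome 1, and Ndufb4, whose copy is the processed pseudogene Ndufb4c. Each of these 6 has a copy with at least 20% of its own CPM at 95% identity or more. When copies were summed with the genes, the mitochondrially encoded members lay between -4.48 and -3.55 on the log2 scale of ratios of means (median -4.25), beside -4.65 to -3.55 (median -4.33) without the copies. mt-Nd3 rose from 2.27 to 19.2 CPM in Trap and from 45.7 to 367 CPM in Input by this sum, with little change in its ratio. For Ndufb4 the log2 ratio was 0.45 alone and 0.67 with its copy.

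The change of isoform within a complex was compared as a ratio of both genes in each library, log2 of CPM plus 0.5, with an exact 2-sided permutation test that places the Input label on 1 of the 4 libraries in each of the 8 groups (65536 placements, smallest possible p 1.5259e-05, adjusted over 8 pairs). Cox7a1 relative to Cox7a2 was higher in Trap by 2.12 (SD over groups 0.208, 8 of 8 groups, exact permutation adjusted p = 4.069e-05). By CPM per kilobase, Cox7a1 made up 27.6% ± 2.58 of the pair in Trap (SD, n = 24) and 7.28% ± 1.02 in Input (SD, n = 8). Such shares divide by all annotated exon bases, so their size depends on the annotation, whereas the log2 ratios use no length. Cox6b2 relative to Cox6b1 was higher by 1.65 (8 of 8 groups, exact permutation adjusted p = 4.069e-05), with a share of 3.10% ± 0.460 in Trap and 0.783% ± 0.208 in Input.

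The c subunit genes of the ATP synthase encode the same mature protein behind different import sequences, and their make-up also differed. Atp5g1 relative to Atp5g3 was lower in Trap by 1.31 on the log2 scale (-1.31, SD over groups 0.0647, 8 of 8 groups, exact permutation adjusted p = 4.069e-05), from a share of 23.96% ± 0.607 in Input to 11.2% ± 0.545 in Trap. The annotated exon bases of Atp5g1 are 4912, although 1 of its transcripts has 691, so the size of these shares is uncertain. Atp5g2 relative to Atp5g3 was close between the fractions, with shares of 31.1% ± 1.40 in Trap and 29.8% ± 1.22 in Input and a difference of 0.09 (7 of 8 groups, exact permutation adjusted p = 0.00596). Cox6a2 relative to Cox6a1 was at -0.36 (6 of 8 groups, exact permutation adjusted p = 0.00596) and Ndufa4l2 relative to Ndufa4 at -0.57 (8 of 8 groups, exact permutation adjusted p = 0.0107), both with an isoform under 2 CPM on average. For Cox4i2 relative to Cox4i1 (-0.03, SD over groups 0.251, exact permutation adjusted p = 0.840) and Cox8b relative to Cox8a (-0.08, SD over groups 0.366, exact permutation adjusted p = 0.586) no difference was detectable, and both values change sign with a pseudocount of 0.1.

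**Figure D2:**
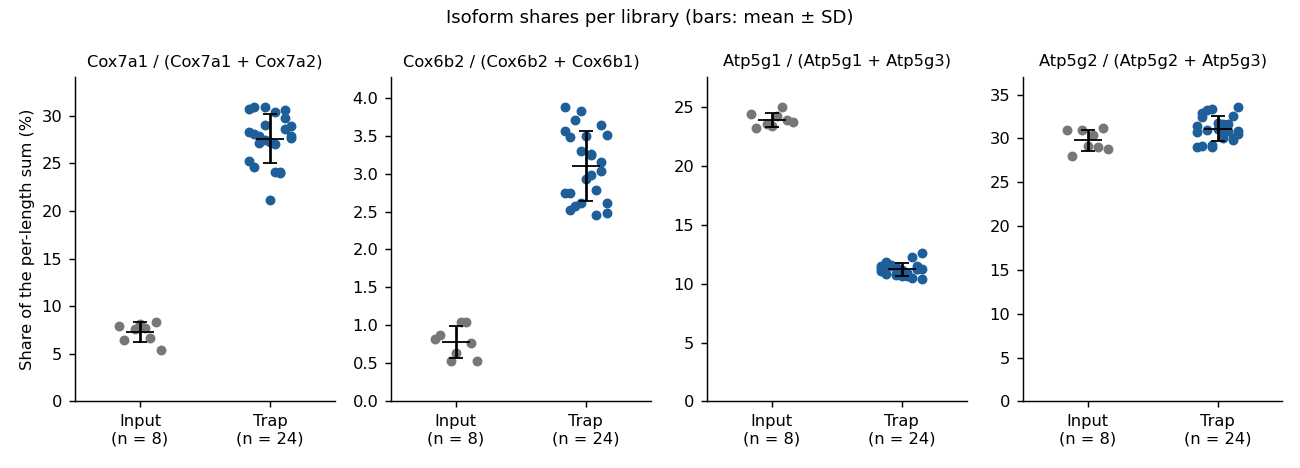
Share of 1 isoform in the summed CPM per kilobase of its pair (vertical axis, percent, from 0) in each Input library (grey, n = 8) and Trap library (blue, n = 24), with mean and SD. Trap lies above Input for Cox7a1 and Cox6b2 and below it for Atp5g1, with no shared values, while the Atp5g2 values overlap. Length is that of all annotated exon bases.

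Other genes of the pathway were taken as 5 related lists. Their counts with TMM scaling are to be read beside the 43.3% of all genes called higher and 44.3% called lower. With library totals the median over all genes was -0.51, so these 2 shares are no background for counts under that scaling. Of 18 complex II subunits and electron or nucleotide carriers 16 were higher in Trap and 2 lower (14 and 3 with library totals, median 0.87 and 0.36). Etfa (2.37) and Etfdh (2.27), which feed electrons from fatty acid oxidation to ubiquinone, were higher, and the assembly factor Sdhaf3 (-1.13) and the outer membrane channel Vdac3 (-0.31) were lower. Of 13 coenzyme Q genes 9 were higher and 2 lower, but 5 and 7 with library totals. Coq9 (1.53), a lipid-binding synthesis factor, and Coq10b (1.12) were higher, and Coq10a (-0.48) and Coq3 (-0.27) lower.

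Of 39 further assembly factors 25 were higher and 6 lower, a split that turned to 9 and 20 with library totals. Their median with library totals was -0.19, above the -0.51 of all genes. The complex I factors Foxred1 (1.22) and Acad9 (1.08) were higher under both scalings, and Atpaf1 (-2.17), a chaperone of the ATP synthase, and the copper factor Cox11 (-0.48) were lower. Of 20 genes that express the mitochondrial genome 9 were higher and 6 lower, or 1 and 13 with library totals (median -0.44, beside -0.51). The transcription factor Tfb2m (0.51) and the helicase Supv3l1 (0.46) were called higher, but were 0.01 and -0.04 with library totals, and the RNA-binding Fastkd2 (-1.23) and Grsf1 (-0.59) were lower. Of 12 regulators 7 were higher and 4 lower (5 and 6 with library totals), among them Gabpa (2.21), an ETS factor, and Ppara (2.53) higher, and Gabpb1 (-0.58) and Ppargc1b (-3.09), a coactivator, lower. Gabpa shares 397 bases of exon with Atp5j on the opposite strand, and reads of the pair cannot be told apart unless counting used the strand, which is not given in the sources used here.

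After fracture, no member was called in Trap at any time. At 3 weeks 0 of 100 members passed edgeR's adjusted threshold, against 0.111% of all genes called, and DESeq2 also called 0. An unadjusted p under 0.05 was found for 4 members, against 8.64% of all genes. At 5 and at 7 weeks 0 members passed, 0 had an unadjusted p under 0.05 and DESeq2 called 0, against 0.0% of all genes called at either time. Over all genes 2.76% and 2.85% had an unadjusted p under 0.05 at these times. The 3 times share the same 6 uninjured Trap libraries. Over the nuclear members the median log2 change was -0.00 at 3 weeks (42 positive, 45 negative), -0.01 at 5 weeks (36 and 51) and 0.08 at 7 weeks (74 and 13). For the mitochondrially encoded members it was 0.19, -0.08 and 0.14. The medians over all genes tested were 0.00, -0.00 and 0.00. The members with an unadjusted p under 0.05 at 3 weeks were Ndufs1, Atp5b, Atp5a1 and Atp5s (0.20).

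These medians moved with the pair of libraries that stood apart. Without them the nuclear median was -0.05 at 3 weeks and -0.08 at 7 weeks (9 positive, 78 negative), and the mitochondrial median -0.12 and -0.04. The cytosolic ribosomal protein genes, 48 in number, were all positive at 3 weeks (median 0.20) and at 7 weeks (0.17). Without the pair all 48 stayed positive at 3 weeks (median 0.15), while at 7 weeks 20 were positive and 28 negative (median -0.00). In male 7 weeks replicate 2 the nuclear members summed to 25155 CPM and the ribosomal proteins to 9206 CPM, the highest of all Trap libraries for both. In female 3 weeks replicate 3 the mitochondrially encoded members summed to 4242 CPM and the neuron markers to 1141 CPM, again the highest. The part of neuronal RNA or of ribosomal protein transcripts in these values was not tested.

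Ndufs1 had the smallest p at 3 weeks. Its Trap level ran from 308 to 349 CPM in the 6 uninjured libraries (median 325) and from 243 to 299 CPM at 3 weeks (median 288), so that these groups did not overlap. As the gene was picked by its p from these same values, the gap is a description and no added support. The change was -0.22 ± 0.0628, with an edgeR adjusted p of 0.192, and -0.20 with an adjusted p of 0.151 without the libraries that stood apart. At 5 weeks Ndufs1 ran from 275 to 348 CPM (median 306) and at 7 weeks from 286 to 339 CPM (median 316), both overlapping the uninjured libraries. In Input it was 140 and 144 CPM in the uninjured libraries and 136 and 140 CPM at 3 weeks.

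The ATP synthase F1 genes came next at 3 weeks. Atp5b ran from 2191 to 2518 CPM uninjured (median 2342) and from 1966 to 2179 CPM at 3 weeks (median 2095), with a change of -0.16 ± 0.0568 (edgeR adjusted p = 0.367). Atp5a1, the alpha subunit, ran from 1713 to 1971 CPM and from 1509 to 1812 CPM (-0.14 ± 0.0554, edgeR adjusted p = 0.435). The Atp5b groups did not overlap and the Atp5a1 groups did, and neither gene passed. Both were picked by p from these same values, so the Atp5b gap adds no support. At 5 weeks the smallest p-values belonged to Cox8b (-0.38), mt-Nd3 (-0.99) and Ndufs1 (-0.09), and at 7 weeks to Ndufaf4 (-0.14), mt-Nd3 (-1.34) and Atp5s (0.16), each with an edgeR adjusted p above 0.99. mt-Nd3 was at 0 in at least 1 Trap library of the uninjured, 5 weeks and 7 weeks groups and shares reads with a copy, so its changes are uncertain.

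**Figure D3:**
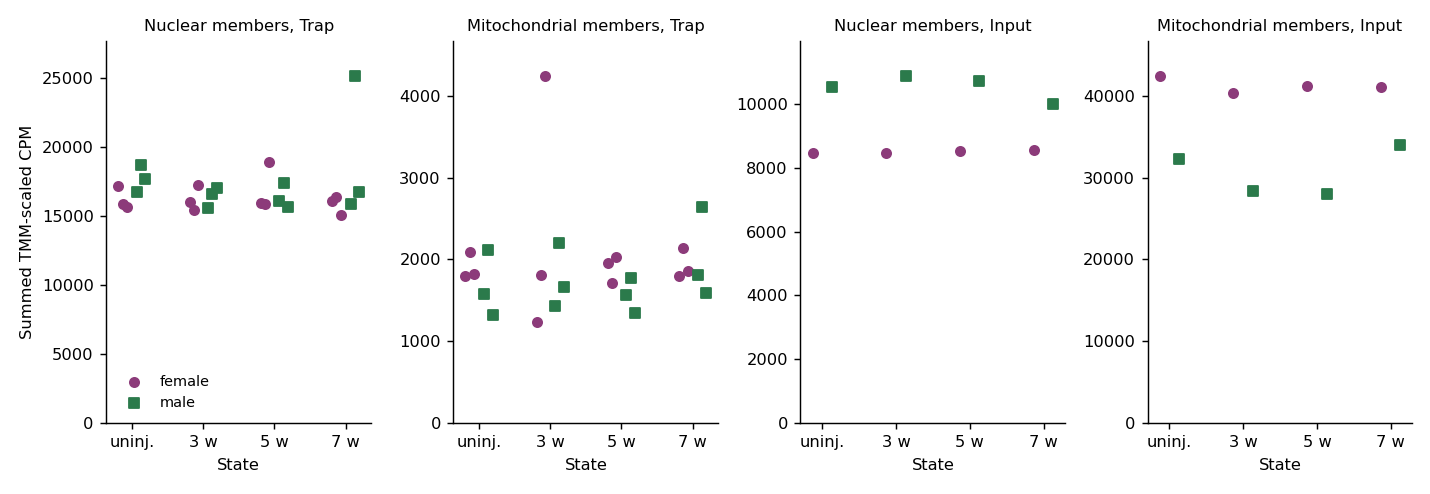
Summed TMM-scaled CPM (vertical axes, each from 0) of the 87 nuclear and the 13 mitochondrially encoded members in each Trap library (left panels) and Input library (right panels), by injury state (uninj., uninjured; w, weeks after fracture) and sex. One male Trap library of 7 weeks (25155 CPM) and 1 female Trap library of 3 weeks (4242 CPM) stand apart, and in Input the sexes do not overlap in either sum.

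Within females the nuclear medians were 0.07, 0.10 and -0.04 at 3, 5 and 7 weeks, and within males -0.08, -0.11 and 0.19. Leaving out 1 library turned the sign of a median in each sex. Without female 5 weeks replicate 3 the female nuclear median at 5 weeks went from 0.10 to -0.04, with 25 positive and 62 negative values. Without female 3 weeks replicate 3 the female nuclear median at 3 weeks was -0.02 (32 positive, 55 negative), and the mitochondrial one went from 0.33 to -0.27. Without male 7 weeks replicate 2 the male nuclear median at 7 weeks went from 0.19 (80 positive, 7 negative) to -0.12 (5 positive, 82 negative), and the mitochondrial one from 0.29 to -0.02. The test of the sex difference of the 3 weeks change called 0 members (1 with an unadjusted p under 0.05 beside 2.59% of all genes, DESeq2 0, 0.0% of all genes called by edgeR). Its smallest p-values were those of Ndufaf4 (-0.34, males minus females), Ndufb4 (-0.39) and Uqcrq (-0.34). The nuclear median of that difference was -0.15 and became -0.07 without the pair of libraries, and the mitochondrial one went from -0.19 to 0.35. In uninjured Trap libraries alone, 0 members differed between the sexes (1 at an unadjusted p under 0.05 beside 3.96% of all genes, DESeq2 0, 0.039% of all genes called), with Ndufaf4 (0.27), Atp5d (0.27) and Uqcrc1 (0.15) nearest.

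In Input, with 2 libraries per state, 0 members were called at 3 weeks (4 at an unadjusted p under 0.05, DESeq2 1, 1.08% of all genes called), 0 at 5 weeks (4, DESeq2 0, 0.107%) and 0 at 7 weeks (0, DESeq2 0, 0.214%). Over all genes 13.9%, 8.49% and 5.87% had an unadjusted p under 0.05 at these times. At 3 weeks Ndufa13, a supernumerary subunit also known as GRIM-19, was at 0.17, Ndufaf4 at -0.24 and mt-Cytb at -0.20. At 5 weeks Cox6a1 (0.14), Ndufv3 (0.18) and Cox5b (0.12) were nearest, and at 7 weeks Ndufab1 (-0.12), Ndufaf3 (-0.18) and Ndufs5 (-0.11). A test of whether the 3 weeks change differed between Trap and Input called 0 members (0 at an unadjusted p under 0.05 beside 2.41% of all genes, DESeq2 0, 0.0% of all genes called), with Cox8b (-0.76), Ndufs1 (-0.17) and Atp5a1 (-0.15) nearest.

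The sexes differed in whole tissue, in opposite directions for the 2 genomes. This comparison over all states was added after the data were seen. In Input 82 of 100 members were called between males and females by edgeR and 74 by DESeq2, and 46.2% of all genes tested were called as well, so a large share is a property of these libraries in general. Of the nuclear members 70 were higher in males and 2 lower, with a median of 0.25, beside 0.02 over all genes. Of the mitochondrially encoded members 9 were lower in males, 1 was higher and 3 were not called, with a median of -0.61.

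The nuclear members summed to between 8459 and 8556 CPM in the 4 female Input libraries and between 10021 and 10885 CPM in the 4 male ones. The mitochondrially encoded members summed to between 40398 and 42451 CPM in females and between 27990 and 33998 CPM in males. Neither sum overlapped between the sexes. Cox4i1 was at 433 ± 15.96 CPM in female and 589 ± 28.5 CPM in male Input (SD, n = 4 each), a difference of 0.40 ± 0.0381, and Ndufa13 at 75.7 ± 2.69 and 106 ± 10.2 CPM, a difference of 0.43 ± 0.0468. Cyc1 (0.40), Ndufs8 (0.40), Cox6a1 (0.38) and Cox5b (0.37) were similar in size, and all 16 ATP synthase genes were higher in males, with a median of 0.26. The assembly factor Ndufaf4 (-0.51) and Atp5s (-0.23) were the nuclear members called lower in males.

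Among the mitochondrially encoded members, mt-Nd5 was at 3835 ± 168 CPM in female and 1677 ± 360 CPM in male Input (-1.26 ± 0.140). mt-Nd6 (-1.09), mt-Nd4 (-1.01) and mt-Nd2 (-0.90) differed by about as much. mt-Cytb differed by -0.61, from 5836 ± 168 to 3956 ± 465.6 CPM, and mt-Co1 by -0.24, from 14643 ± 299 to 12845 ± 888 CPM. mt-Co3 was the exception, called higher in males at 2805 ± 83.5 against 2557 ± 137 CPM, although the ranges overlap and the gene shares reads with a copy. That call was lost with DESeq2, with DESeq2's size factors and without the filter on low counts. Leaving out any 1 of 6 of the 8 Input libraries also lost it (all but the female and male libraries of 3 weeks). The female and the male library of a state are not separate checks here. Without either one, the other library of that state says nothing about sex in the fit. By ranges over the libraries, 74 nuclear members lay wholly above in males, 2 wholly below and 11 overlapped, and 11 mitochondrially encoded members lay wholly below and 2 overlapped. The share of all genes with separate ranges was not counted, and 46.2% of all genes were called in this comparison.

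Ribosomal protein genes moved with the nuclear members in Input (42 of 48 called higher in males, median 0.26). The sample names of the female and male Input columns are formed differently in the table, and each sex has 4 Input libraries, 1 per state. Any difference in preparation between the sexes cannot be told apart from sex.

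In Trap the same comparison, over 12 libraries of each sex, called 0 of 100 members (15 at an unadjusted p under 0.05 beside 9.79% of all genes, DESeq2 0, 0.195% of all genes called). The nuclear median was 0.09 with 79 positive and 8 negative values, and the mitochondrial median -0.28 with all 13 negative. Without the pair of libraries that stood apart the nuclear median was 0.04 (64 positive, 23 negative) and the mitochondrial median -0.21 (3 positive, 10 negative). Without female 3 weeks replicate 3 alone the mitochondrial median was -0.14 (4 positive, 9 negative), and without male 7 weeks replicate 2 alone the nuclear median was 0.01 (54 positive, 33 negative). The levels of all 100 members overlapped between the sexes. Atp5d, the delta subunit of the ATP synthase, was nearest at 0.20 ± 0.0691 (edgeR adjusted p = 0.310), with 209 ± 15.9 CPM in female and 241 ± 42.3 CPM in male Trap (SD, n = 12 each), followed by Uqcrc1 (0.13) and Ndufs3 (0.19). Without the pair of libraries these 3 were at 0.15, 0.09 and 0.12, and none was called. mt-Nd5 was at 150 ± 32.5 and 121 ± 29.4 CPM in Trap, a difference of -0.32 that was not called. Whether the sex difference itself was larger in Input than in Trap was not tested.

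**Figure D4:**
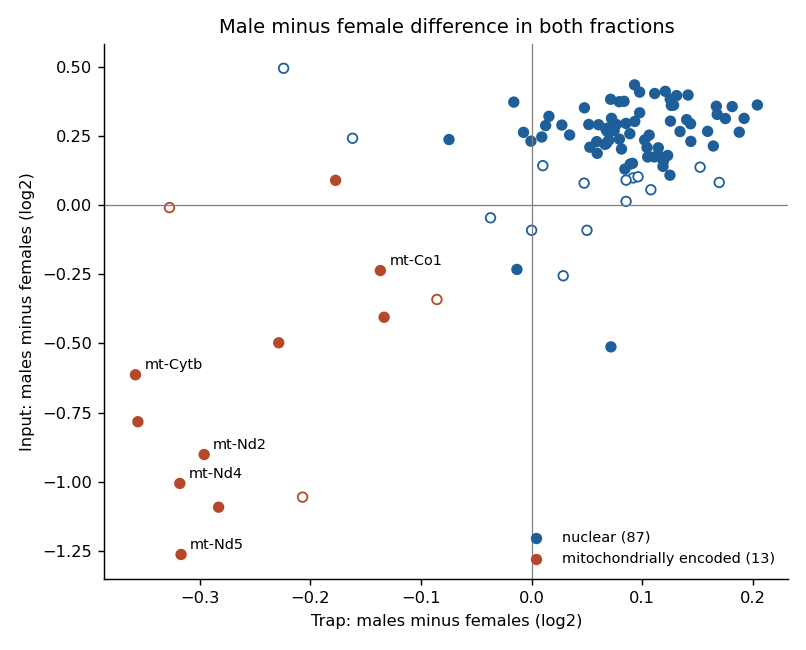
Log2 difference of males and females in Trap (horizontal axis) and in Input (vertical axis) for the 87 nuclear (blue) and 13 mitochondrially encoded (red) members. Filled points were called in Input, open points were not, and none was called in Trap. Most nuclear members lie above 0 on the vertical axis, and mitochondrially encoded members down to -1.26.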

How the data were processed

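The deposited values are the authors' estimated counts from RSEM, 1 table with 55938 genes by 32 libraries. Per the submitters' processing notes, reads were handled with FastQC, Trim Galore, STAR on GRCm38 and RSEM, and per the labels' protocols libraries were poly-A selected. Versions and the annotation release are not given in the sources used here. Estimated counts were rounded, symbols and positions were matched by identifier to GENCODE's mouse annotation for 55141 identifiers, and genes without a symbol took 0.301% of counts. Positions are GRCm38. A level of 1 CPM corresponds to 21 counts in the median library, and isoforms near that level are imprecise.

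The test was edgeR's quasi-likelihood test (version 4.0.16, R 4.3.3) after filterByExpr and TMM scaling, with robust dispersion, Benjamini-Hochberg adjustment over all genes tested and 0.05 as the threshold. Trap against Input used all 32 libraries, adjusted for the 8 groups of sex and state, the Trap comparisons a mean for each sex and state, and the Input comparisons sex and state. CPM values are TMM-scaled, and log2 differences are given with the standard error of the fit. Code was tested on simulated data. DESeq2 1.42.0, other scalings, filters, covariates and left-out libraries were alternatives.

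Genes were named by a rule: in each role up to 3 members with the highest and 3 with the lowest Trap difference, every nuclear member called lower, all mitochondrially encoded members, both genes of each pair, elsewhere the called members or else the 3 with the smallest p, and up to 2 each way from related lists. Other members were named after their values were seen. One member that the rule names is not reported here. The members and lists were chosen with earlier results of these data known.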

Additional observations from a re-analysis of the deposited data

Results flagged for a closer look

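Among 65 groups of libraries, from 13 series of values, that were examined for a single library far from the others, 8 had one. Each of the 8 was a group of 6 Trap libraries. Chance gives about 1 in 20, but the groups are not independent, since the nuclear sum holds the single genes. Whether 8 is more than chance was therefore not tested. Of these 8, 6 are the same library, male 7 weeks replicate 2. Its nuclear members summed to 25160 CPM, against 15040 to 16740 CPM in the other libraries of 7 weeks. In it Atp5b was at 2728 CPM (others 2103 to 2281), Atp5d at 359.5 CPM (others 187 to 228), Ndufb4 at 64.0 CPM (others 29.3 to 39.3), Uqcrc1 at 235.9 CPM (others 166 to 191) and Uqcrq at 244.1 CPM (others 125 to 156). In female 3 weeks replicate 3 the mitochondrially encoded members summed to 4242 CPM, against 1235 to 2195 CPM in the other libraries of 3 weeks. In female 5 weeks replicate 3 Uqcrq was at 198.3 CPM, against 132 to 152 CPM in the others of 5 weeks.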

How the results depend on the processing

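Over all alternatives, 3008 of 3075 values of named genes kept direction and side of the threshold, 50 lost a call, 2 gained one and 15 turned sign. With library totals, an alternative added after the data were seen, 50 nuclear members were called higher and 13 lower in Trap. Of the 87 nuclear members 65 were then positive and 22 negative, beside 83 and 4 with TMM scaling. Among the named genes these turned sign: Atp5s -0.41, Cox4i1 -0.075, Cox6a2 -0.30, Cox7a2 -0.11, Ndufa4 -0.18, Ndufa6 -0.25, Ndufaf3 -0.37, Ndufaf4 -0.037, Ndufb5 -0.33 and Ndufb8 -0.23. With DESeq2's size factors Atp5s was -0.0447 and Ndufaf3 -0.0051, with DESeq2 itself -0.0451 and -0.0052, and in females only Atp5s was -0.0043 and 2 nuclear members were lower. In Input at 3 weeks DESeq2 called 1 member, and leaving out single libraries gave 0 to 2 (2 without female 3 weeks replicate 1). The pair Cox4i2/Cox4i1 was 0.13 with a pseudocount of 0.1, -0.23 (exact permutation adjusted p = 0.0218) with 2, and -0.0847 to 0.0093 when single groups were left out, above 0 without the female uninjured or the male 5 weeks group. Cox8b/Cox8a was 0.10 and -0.40 (exact permutation adjusted p = 0.000537) with these pseudocounts. For these changes the cause was not tested. Same-numbered libraries of 1 sex had a median correlation of deviations of 0.06 (7 of 36 pairs over 0.1), those across the sexes -0.01 (0 of 48) and differently numbered ones -0.01 (7 of 168), so that not every pair deviated together. With the replicate number as a block 75 nuclear members were higher and 4 lower in Trap (76 and 4 with a block within each sex, since the column names carry the number separately by sex), and 0 members were called after fracture. Over all genes, 14373 and 14445 were called in either direction between Trap and Input with these blocks.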

Other observations

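Over the 87 nuclear members the Spearman correlation of the Trap difference was -0.11 with exon length and 0.24 with mean CPM. The genes share the same libraries, and these values are given as a description.

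In Input, related lists are given for males against females beside the 46.2% of all genes called. Of the 18 complex II and carrier genes 13 were higher in males and 2 lower (median 0.16), of the 39 assembly factors 15 were higher and 3 lower, and of the 20 genes that express the mitochondrial genome 2 were higher and 6 lower (median -0.15). The ETS factor Gabpa, chosen after its values were seen, was at -0.80.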
